A study of Mus musculus with 12 samples.

Results

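Gene expression in round spermatids was compared with that in pachytene/diplotene spermatocytes of Baz1a-/- mice, that is, across the passage out of meiosis in germ cells without BAZ1A. The comparison was defined by the sample titles: 5 of the 12 arrays in the series entered it, 3 of mutant spermatids (replicates 1, 2 and 3) and 2 of mutant spermatocytes (replicates 2 and 3). The array of mutant spermatocyte replicate 1, whose title marks it as censored and which the study's methods set aside for contamination with spermatids, was left out. Spermatocytes and spermatids with the same number came from the same mouse, so that replicate 1 contributed spermatids only. Probes entered the tests when at least 1 of these 5 arrays gave them a detection p-value (the chance of such a signal from negative-control beads) below 0.05, as 24765 of 45281 probes did. Of these, 20349 carried 1 gene name (13125 genes), 13 carried several names and 4403 carried none.

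BAZ1A (ACF1) is the large accessory subunit of the ACF and CHRAC chromatin remodelers, in which it partners the ISWI ATPase SNF2H (Smarca5). All 5 arrays came from adult males homozygous for a Baz1a allele that had lost exon 6 in the germ line through Stra8-Cre. The 6 control arrays, which share the normalization and the fitted spread with the mutant arrays and serve as the scale and the comparison for the mutant change, came from heterozygous Baz1a+/- littermates (3 spermatocyte and 3 spermatid arrays). All mice had a mixed C57BL/6J and FVB/NJ background, and the allele descended from 1 embryonic stem cell clone. The cells were enriched from testis suspensions by flow cytometry on Hoechst fluorescence, so that each array reads an enriched fraction and not a pure cell type, and fewer cells of a type cannot be told apart from less RNA per cell. No probe was matched to Baz1a by name, and the deletion was not checked on these arrays.

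In meiotic prophase, spermatocytes pair and recombine their chromosomes, silence the X and Y, and express the piRNA machinery, which processes small RNAs bound by PIWI proteins. After the meiotic divisions, haploid round spermatids start a large transcription program under the activator CREM and other factors: they build the acrosome, lay down the sperm tail, and make the transition proteins and protamines that later replace histones. Many of these messenger RNAs are stored and translated days after they are made.

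CREM binds the cAMP response element, and the MYB family member MYBL1 drives many genes of pachytene spermatocytes, so promoters of the named genes were searched for both sites. RefSeq promoters (build GRCm38.p6, 250 bases before to 50 after the start site) were matched for 126 of the 155 named genes. The promoters of 4 of these genes are printed here, 2 of genes that rose and 2 of genes that fell, to set a site of each kind beside a change in each direction. Capitals mark the cAMP response element TGACGTCA or the MYB site AACNGTT, searched on both strands. Spag4 (chr2:156064963-156065262, plus strand) and Abitram (chr4:56802079-56802378, plus strand) hold the first, which starts 37 and 4 bases before the start site. Spag6 (chr2:18698772-18699071, plus strand) and Sycp1 (chr3:102936051-102936350, minus strand) hold the second, 76 and 35 bases before it.
Spag4: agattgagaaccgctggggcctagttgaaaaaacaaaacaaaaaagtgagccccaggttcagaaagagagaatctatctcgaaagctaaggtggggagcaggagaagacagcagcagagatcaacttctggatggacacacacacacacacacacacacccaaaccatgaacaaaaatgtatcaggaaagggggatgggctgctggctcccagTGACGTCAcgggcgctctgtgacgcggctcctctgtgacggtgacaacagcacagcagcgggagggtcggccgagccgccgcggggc
Abitram: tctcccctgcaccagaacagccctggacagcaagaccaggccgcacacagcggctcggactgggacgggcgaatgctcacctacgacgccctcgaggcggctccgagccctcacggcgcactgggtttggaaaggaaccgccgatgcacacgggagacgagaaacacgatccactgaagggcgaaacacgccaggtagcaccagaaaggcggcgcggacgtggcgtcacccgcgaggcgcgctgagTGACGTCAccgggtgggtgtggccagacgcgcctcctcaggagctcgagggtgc
Spag6: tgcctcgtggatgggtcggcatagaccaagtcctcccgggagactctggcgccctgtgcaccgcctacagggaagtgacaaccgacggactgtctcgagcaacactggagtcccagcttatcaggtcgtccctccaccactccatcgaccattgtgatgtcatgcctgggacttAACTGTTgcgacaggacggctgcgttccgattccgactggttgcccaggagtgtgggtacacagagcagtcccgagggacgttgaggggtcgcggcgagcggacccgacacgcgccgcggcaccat
Sycp1: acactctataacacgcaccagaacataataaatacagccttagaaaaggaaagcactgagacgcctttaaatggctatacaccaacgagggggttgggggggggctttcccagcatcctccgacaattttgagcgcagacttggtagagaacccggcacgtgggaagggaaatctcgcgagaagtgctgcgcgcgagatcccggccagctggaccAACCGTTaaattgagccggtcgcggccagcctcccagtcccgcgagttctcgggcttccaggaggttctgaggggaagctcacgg

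Spag4, which encodes a SUN-domain protein of the spermatid nuclear envelope, rose by 3.33 ± 0.79 (SE) on the log2 scale, and Abitram, which encodes an actin-binding transcription modulator, fell by 5.06 ± 0.34. Spag6, which encodes a protein of the axonemal central apparatus, rose by 3.44 ± 0.39, and Sycp1, which encodes the transverse filament of the synaptonemal complex, fell by 1.12 ± 0.31 (limma adjusted p = 0.00375, 1.89e-06, 2.14e-05 and 0.0102). That each motif lay before a gene that rose and before one that fell follows from how these 4 promoters were picked. The full cAMP response element was found for 3.09% of the 2040 genes that rose, 4.32% of the 2386 that fell and 2.76% of the 6061 not called. Over all 27025 genes with a promoter of this length it was found for 2.03%. A gene was counted if any of its promoters held the site. Genes with probes called in both directions were in none of the groups that rose, fell or were not called. The MYB site was found for 5.10%, 4.15%, 4.26% and 5.01% of these genes, in the same order. The TATA box TATAAA (both strands) was found in 12.4%, 7.38%, 11.8% and 15.7%. CG dinucleotides, counted in the promoter of each gene that held the most, were more frequent in genes that fell (median 24) than in genes that rose (median 14). The median was 18 in genes not called and 8 over all genes with a promoter. These shares are descriptions, and a match is not shown to be a bound site.

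All values below are log2 normalized signals, and changes are log2 differences. A probe was called at an estimated fold of at least 2 with a Benjamini-Hochberg adjusted p under 0.05, from a limma linear model of the 11 uncensored arrays in 4 groups with array weights. Of the tested probes, 8886 (35.9%) were called between mutant spermatids and mutant spermatocytes: 4202 (17%) rose and 4684 (18.9%) fell, which covers 5567 named genes. The rises were larger (median 2.17, with 1219 probes at 8-fold or more) than the falls (median -1.71, with 496). Rises made up 76.5% of the 1000 called probes that changed most. On 1185 probes a signal was detected on all 3 spermatid arrays and on neither spermatocyte array (790 called higher), and on 1205 probes the reverse held (641 called lower). Groups without overlap were common among all tested probes (63.8%), and among called probes they made up 99.7% of rises and 99.8% of falls.

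The 2 mutant spermatocyte arrays stood at different distances from the spermatids, and the named rises moved with it. Each array was placed on a scale between the mean of control spermatocytes (0%) and the mean of control spermatids (100%) over the 3751 probes called higher in control spermatids. Spermatocyte replicate 2 stood at -6.2%, within the range of the control spermatocytes (-11.0% to 6.22%). Spermatocyte replicate 3 stood at 25.9%, between these and the censored array (34.5%). The 3 mutant spermatid arrays stood at 97.6%, 111% and 111%, against 91.7% to 106% in control spermatids. Over the 4398 probes called lower in control spermatids, the spermatocyte arrays stood at -3.19% and 13.8%, the censored array at 20%, and the mutant spermatids at 102%, 112% and 115%. Transcripts that rise in control spermatids thus read higher on spermatocyte replicate 3 than on replicate 2 or any control spermatocyte array. The part of this in each result was not tested, and the values without that array are given for the named genes and lists that moved by more than 1.5-fold. Without it 10018 probes were called, and without spermatocyte replicate 2, 8177. The median of the 4202 rises was then 2.40 and 1.94, and that of the 4684 falls was -1.89 and -1.57.

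**Figure D1:**
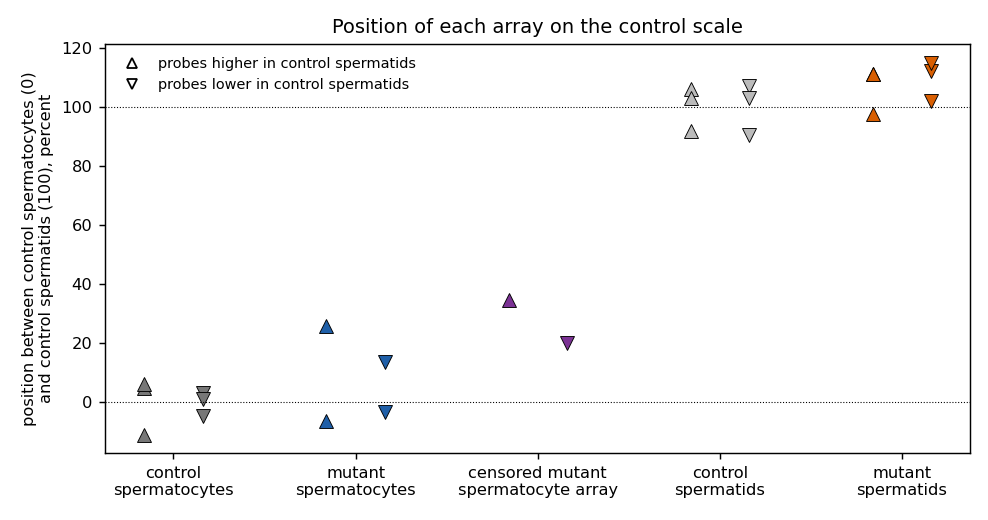
Position of each array (1 symbol per array) in percent between the control spermatocyte mean (0) and the control spermatid mean (100), over probes higher (upward triangles) or lower (downward triangles) in control spermatids. Mutant spermatocyte replicate 2 sits at -6.2% on rising probes with the control spermatocytes, replicate 3 at 25.9%, and the censored array at 34.5%.

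The labelled cell types were checked against markers. Over all tested probes 17% rose and 18.9% fell. Of 20 round spermatid markers tested, 17 rose and none fell (median 3.39; 2.22 without spermatocyte replicate 2 and 4.67 without replicate 3), and their summed linear signal was 17740 and 39840 on spermatocyte replicates 2 and 3 against 112500 to 122100 on the spermatids. Of 8 spermatocyte markers tested, 4 fell and 2 rose (median -0.93). The rising pair was Cdc25c, a cell-cycle phosphatase, and Ccna1, the meiotic cyclin A1. The probes of Sycp3, Hormad1 and Mybl1, which define spermatocytes, were not detected on any of the 5 arrays. The median spread between arrays of a group was 0.24 in mutant spermatocytes and 0.26 in mutant spermatids (SD), and 36.2% to 41.4% of the probes were detected per array. The number of arrays limits the precision.

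Genes of the sperm tail cytoskeleton were among the lists with the highest medians. Of 11 tested genes of the fibrous sheath and outer dense fibres, which surround the tail axoneme, 8 rose and none fell, against 17% and 18.9% of all tested probes. Their median was 3.21 (2.01 without spermatocyte replicate 2 and 4.36 without replicate 3). Odf1, a main outer dense fibre protein, read 9.46 and 11.72 on spermatocyte replicates 2 and 3 and 13.68, 13.62 and 13.56 on the spermatids. The spermatids lay close together and above both spermatocyte arrays, whereas the latter lay over 2 log2 units apart. Odf1 rose by 3.02 ± 0.78 (SE, limma adjusted p = 0.00659), or by 4.15 without spermatocyte replicate 3. Akap4, the X-linked anchor protein of the fibrous sheath, read 8.20 and 10.51 in spermatocytes and 12.57, 12.81 and 12.35 in spermatids, a rise of 3.21 ± 0.72 (adjusted p = 0.00269, limma; 4.36 without replicate 3). Ropn1, Akap3, Cabyr and Odf3 rose by 3.43 to 3.94 (4.58 to 4.86 without replicate 3). Odf2, Odf4 and Spa17 were not called, with changes of 0.50, -0.09 and 0.27 at the probe of highest mean, although dimmer Odf2 probes rose by 1.06 and 1.04 and 1 fell by 1.35.

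All 5 tested members of the testis-specific serine kinase group rose, against 17% of all tested probes. Their median was 3.34 (2.22 without spermatocyte replicate 2 and 4.34 without replicate 3). Tssk4 read 5.46 and 8.63 in spermatocytes and 10.93, 10.98 and 11.46 in spermatids, and rose by 4.12 ± 0.79 (limma adjusted p = 0.000874; 5.70 without spermatocyte replicate 3). Tssk2 and the kinase substrate Tsks rose by 3.44 and 3.16 (4.65 and 4.34 without replicate 3), and Tssk6 rose by 3.34.

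Of 19 tested acrosome genes, 7 rose and 1 fell (median 0.47), against 17% and 18.9% of all tested probes. Acrv1, which encodes an acrosomal matrix protein, read 7.37 and 10.93 in spermatocytes and 12.66, 12.75 and 12.78 in spermatids. Its rise of 3.59 ± 0.90 (limma adjusted p = 0.00555) was 1.81 without spermatocyte replicate 2 and 5.37 without replicate 3. Spaca4, a sperm acrosome membrane protein, had the largest rise of the list: it read 6.06 and 9.40 in spermatocytes and 11.74, 11.79 and 12.36 in spermatids (4.28 ± 0.84, limma adjusted p = 0.001; 5.95 without replicate 3). Spam1, the sperm hyaluronidase, Spaca7 and Spaca3 rose by 3.87 to 3.93 (2.19 to 2.23 without replicate 2 and 5.51 to 5.63 without replicate 3). Gopc, a Golgi protein that spermatids need for the acrosome, went the other way: it read 6.50 and 6.12 in spermatocytes and was detected on none of the spermatid arrays, at least 2.82-fold lower.

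The CatSper calcium channel of the sperm tail split by subunit. Of 12 tested ion channel genes, 5 rose and 3 fell (median 0.49), against 17% and 18.9% of all tested probes. The pore subunit Catsper1 read 5.12 and 8.20 in spermatocytes and 10.64, 10.72 and 11.08 in spermatids, a rise of 4.19 ± 0.66 (limma adjusted p = 0.000215; 5.73 without spermatocyte replicate 3). The pore subunits Catsper3 and Catsper4 rose by 3.9 and 3.87 (5.36 and 5.52 without replicate 3). Lrrc52, an auxiliary subunit of a sperm potassium channel, rose by 4.31 ± 0.43 (5.01 without replicate 3). The 3 members that fell are auxiliary CatSper subunits. Catsperg2 read 10.82 and 11.24 in spermatocytes and 9.41, 9.36 and 9.38 in spermatids (-1.65 ± 0.41, limma adjusted p = 0.00486), and Catsperd fell by 1.37 ± 0.27. Catsperb was detected on both spermatocyte arrays and on no spermatid array, at least 2.69-fold lower.

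**Figure D2:**
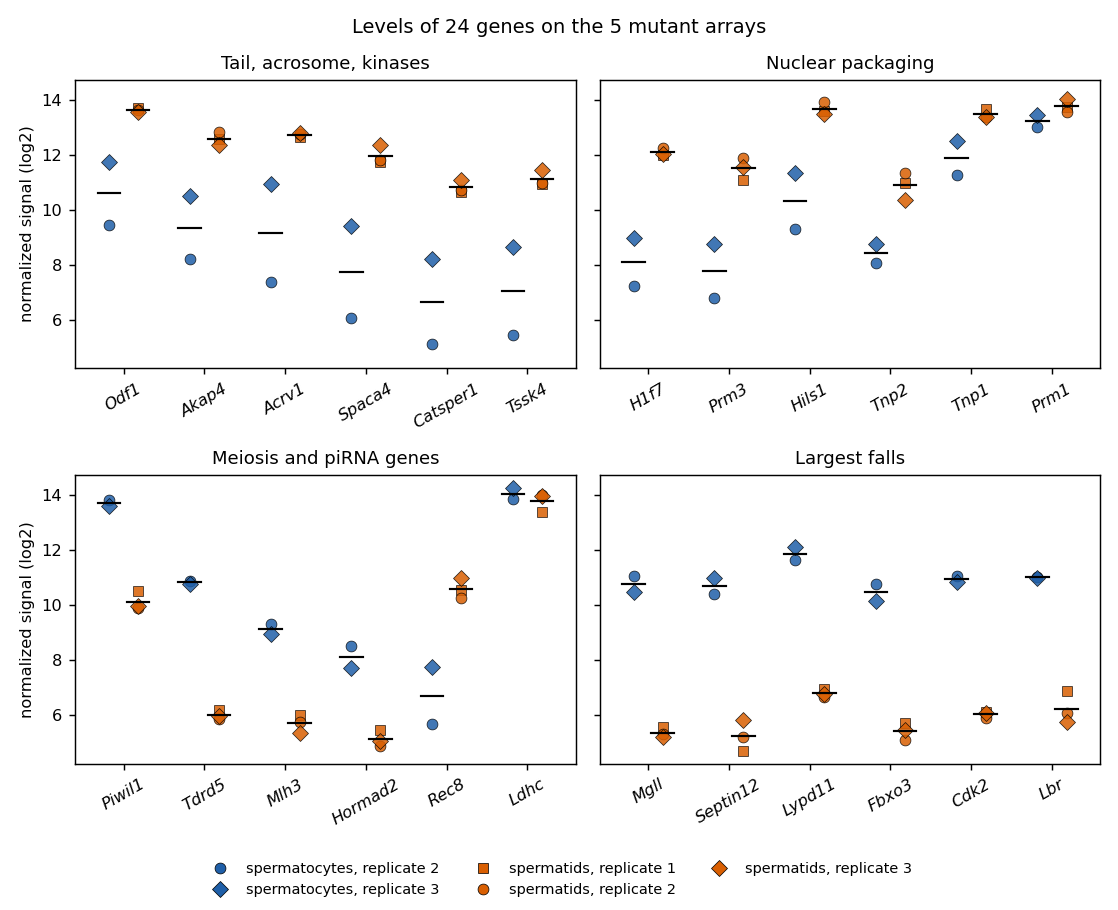
Normalized log2 signal of 24 genes on the 5 mutant arrays (blue, spermatocyte replicates 2 and 3; orange, spermatid replicates 1 to 3; marker shape, mouse; bars, group means). For rising genes such as Acrv1 (7.37 and 10.93) the 2 spermatocyte arrays lie far apart, whereas for falling genes such as Tdrd5 (10.88 and 10.77) they lie together.

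Of 15 tested axoneme genes 3 rose and 3 fell (median 0.02), shares near the 17% and 18.9% of all tested probes. Spag6 read 4.42 and 5.13 in spermatocytes and 8.08, 7.91 and 8.55 in spermatids. The outer arm dynein heavy chains Dnah8 and Dnah17 fell by 1.76 and 1.17, and Iqcg, which encodes a protein of the dynein regulatory complex, fell by 2.69. Dnah17 lost its call without spermatid replicate 3 (-0.97) or spermatocyte replicate 3 (-0.98), and the rise of Dnali1 (1.06) lost its call without spermatocyte replicate 2 (0.95). Among 7 tested genes of sperm energy metabolism, the germ-cell glycolytic isozymes Gapdhs and Pgk2 rose by 3.43 (4.35 without spermatocyte replicate 3) and 1.52. The hexokinase gene Hk1 rose by 2.24, and the glucose transporter Slc2a3 fell by 1.56. Ldhc, the germ-cell lactate dehydrogenase, was not called and overlapped between the groups, at 13.85 and 14.25 in spermatocytes and 13.38, 14.02 and 13.96 in spermatids (-0.22 ± 0.26, limma adjusted p = 0.532).

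Genes of sperm nuclear packaging were higher in spermatids in part. Of 9 tested transition protein, protamine and testis histone genes, 5 rose and none fell, against 17% and 18.9% of all tested probes. Their median was 1.56 (2.16 without spermatocyte replicate 3). In controls 7 of the 9 rose (median 1.88), and none was called for the difference between the genotypes. H1f7, a spermatid linker histone, read 7.22 and 8.98 in spermatocytes and 11.99, 12.24 and 12.02 in spermatids, a rise of 3.98 ± 0.64 (limma adjusted p = 0.00024; 4.86 without spermatocyte replicate 3). Hils1, a spermatid-specific linker histone-like protein, Prm3 and Tnp2 rose by 3.34, 3.76 and 2.42 (Hils1 and Prm3 by 4.37 and 4.75 without replicate 3). Tnp1 and Prm1 were already among the strongest signals in spermatocytes. Tnp1 read 11.28 and 12.48 there and 13.65, 13.36 and 13.38 in spermatids, without overlap, and missed the threshold (1.56 ± 0.61, limma adjusted p = 0.0547); without spermatocyte replicate 3 it was called (2.16), as it was with the mouse as a random or fixed block (1.55, limma adjusted p = 0.0444, and 1.49, 0.0398). Prm1 read 12.99 and 13.45 against 13.74, 13.57 and 14.02 (0.58 ± 0.50, limma adjusted p = 0.387).

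Chromatin regulators of histone removal divided into 2 rises and 5 falls of 11 tested (median -0.88), against 17% and 18.9% of all tested probes. Cdyl, a chromodomain protein linked to histone crotonylation, rose from 5.23 and 6.55 to 9.96, 10.54 and 10.05 (4.29 ± 0.49, limma adjusted p = 2.25e-05; 4.96 without spermatocyte replicate 3). Chd5, a remodeler that acts in the histone-to-protamine exchange, rose by 4.04 ± 0.74 (5.35 without replicate 3). Rnf8, the ubiquitin ligase that modifies histones after DNA breaks, fell from 9.04 and 7.99 to 5.63, 5.76 and 5.8 (-2.77 ± 0.31, limma adjusted p = 2.18e-05). Pygo2, Kat5 and Parp2 fell by 2.20, 1.96 and 1.89. Brdt, the testis bromodomain protein, was not called, at 11.21 and 11.82 against 11.72, 11.34 and 11.77.

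Of 10 tested genes of ISWI complexes, in which BAZ1A acts, 3 fell and none was called higher (median -0.07), against 18.9% and 17% of all tested probes; without spermatocyte replicate 2, 1 fell. Smarca5 read 6.08 and 5.29 in spermatocytes and was detected on no spermatid array, at least 1.82-fold lower (limma adjusted p = 0.00266). Rbbp4, a histone chaperone, fell by 1.79 ± 0.43, and Bptf, the large subunit of the related NURF complex, by 1.13 ± 0.41. Without spermatocyte replicate 2, Smarca5 (-0.98) and Bptf (-0.81) lost their calls, as did Bptf without spermatid replicate 2 or 3 (-0.87 and -1.09, limma adjusted p = 0.148 and 0.0972). Pole3, a histone-fold subunit of CHRAC, lay at 10.20 to 10.56 on all 5 arrays at its brightest probe (-0.18 ± 0.23, limma adjusted p = 0.577), whereas another Pole3 probe read 10.09 and 10.15 in spermatocytes and 7.01, 6.62 and 6.56 in spermatids (-3.43 ± 0.30).

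Of 18 tested members of the nuclear envelope and manchette list, 5 were higher and 5 lower (median -0.15), against 17% and 18.9% of all tested probes. Sun5, like Spag4 a SUN-domain protein of spermatids, rose by 3.82, Hook1, a manchette linker, by 2.98, and Lmnb2, which encodes lamin B2, by 2.49. Without spermatocyte replicate 3, Sun5, Spag4 and Lmnb2 rose by 5.29, 4.66 and 3.09. Lbr, the lamin B receptor of the inner membrane, fell from 11.04 and 10.98 to 6.89, 6.07 and 5.74 (-4.87 ± 0.45, limma adjusted p = 7.45e-06). Lmnb1, which encodes lamin B1, read 7.52 and 7.07 in spermatocytes and was detected on no spermatid array, at least 5.58-fold lower. Septin12, a septin of the sperm annulus, fell from 10.40 and 10.99 to 4.71, 5.22 and 5.83, the second largest fall of any named gene (-5.35 ± 0.44).

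Transcripts of the piRNA pathway had the lowest median of the 17 lists plotted: 12 of 17 tested members fell and 1 rose (median -1.90), against 18.9% of all tested probes that fell. Piwil1, the PIWI protein of pachytene piRNAs, read 13.83 and 13.61 in spermatocytes and 10.50, 9.90 and 9.96 in spermatids (-3.64 ± 0.32, limma adjusted p = 5.63e-06). Tdrd5, whose Tudor-domain product localizes to germ granules, read 10.88 and 10.77 against 6.18, 5.88 and 5.96 (-4.84 ± 0.30). Piwil2 and the helicase Tdrd9 fell by 3.23 and 3.14. For these genes both spermatocyte arrays lay close together and far above all spermatid arrays. Gtsf1, a zinc finger partner of PIWI proteins, was the 1 member that rose (1.01 ± 0.29); it lost its call without spermatid replicate 2 or spermatocyte replicate 3 (0.90 and 0.81). Ddx4, Tdrd6, Tdrd7 and Ddx25, components of germ granules, were not called, with changes of -0.57, -0.26, 0.42 and 0.01.

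Of 12 tested synaptonemal complex and cohesin genes 3 fell and 3 rose (median 0.20), and of 19 tested recombination genes 4 fell and 2 rose (median -0.39), counts near what the 18.9% and 17% over all tested probes would give. Hormad2, a chromosome axis protein, fell from 8.53 and 7.70 to 5.45, 4.89 and 5.05 (-3.02 ± 0.30, limma adjusted p = 1.09e-05), and the axis protein Sycp2 fell by 2.33 ± 0.26. Mlh3, which acts in crossover formation, fell from 9.31 and 8.96 to 6.01, 5.76 and 5.36 (-3.48 ± 0.47). The other falls of that list were Meiob (-2.40), Spata22 (at least 2.25-fold lower) and Spo11, the nuclease that starts recombination (-1.55). Rec8, the meiotic cohesin kleisin, was higher in spermatids, at 5.67 and 7.76 against 10.54, 10.24 and 11 (3.92 ± 0.59, limma adjusted p = 0.000147; 4.96 without spermatocyte replicate 3). Syce2, a central element protein, and the cohesin subunit Smc3 also rose, by 2.36 and 2.35, as did Rec114, needed for DNA breaks (2.15), and the X-linked Tex11 (1.25).

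Sycp1 read 7.17 and 7.24 in spermatocytes and 5.63, 6.00 and 6.44 in spermatids. Its fall was called in the fit without blocking and lost without spermatid replicate 1 (-0.99). The mouse as a fixed block, which takes up that unpaired array, gave the same estimate (-0.99, limma adjusted p = 0.0476, below the required fold). Spata22 lost its call without spermatocyte replicate 2 (-0.77) and fell by 2.50 without replicate 3.

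Genes of the meiotic divisions gave 4 rises and 5 falls of 20 tested (median -0.73), shares near the 17% and 18.9% over all tested probes. Cdk2, a kinase needed in meiotic prophase, fell at all 4 tested probes. The brightest read 11.97 and 12.04 in spermatocytes and 7.36, 7.21 and 6.94 in spermatids (-4.87 ± 0.37, limma adjusted p = 3.04e-06). The spindle checkpoint gene Mad2l1 and the securin gene Pttg1 fell by 3.01 and 2.05, and the spindle motor Kif11 was detected on no spermatid array, at least 3.89-fold lower. The phosphatases Cdc25c and Cdc25a and the kinase Plk1, which drive entry into division, rose by 2.96, 2.41 and 1.81. Ccna1 rose by 1.12 (limma adjusted p = 0.0259) but was below the required fold without spermatocyte replicate 2 (0.63) and without spermatid replicate 1 (0.94). The mouse as a fixed block, which takes up that unpaired spermatid array, gave the same estimate (0.94). Hspa2, a testis heat shock protein, read 13.78 to 14.25 on the 5 arrays and was not called.

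**Figure D3:**
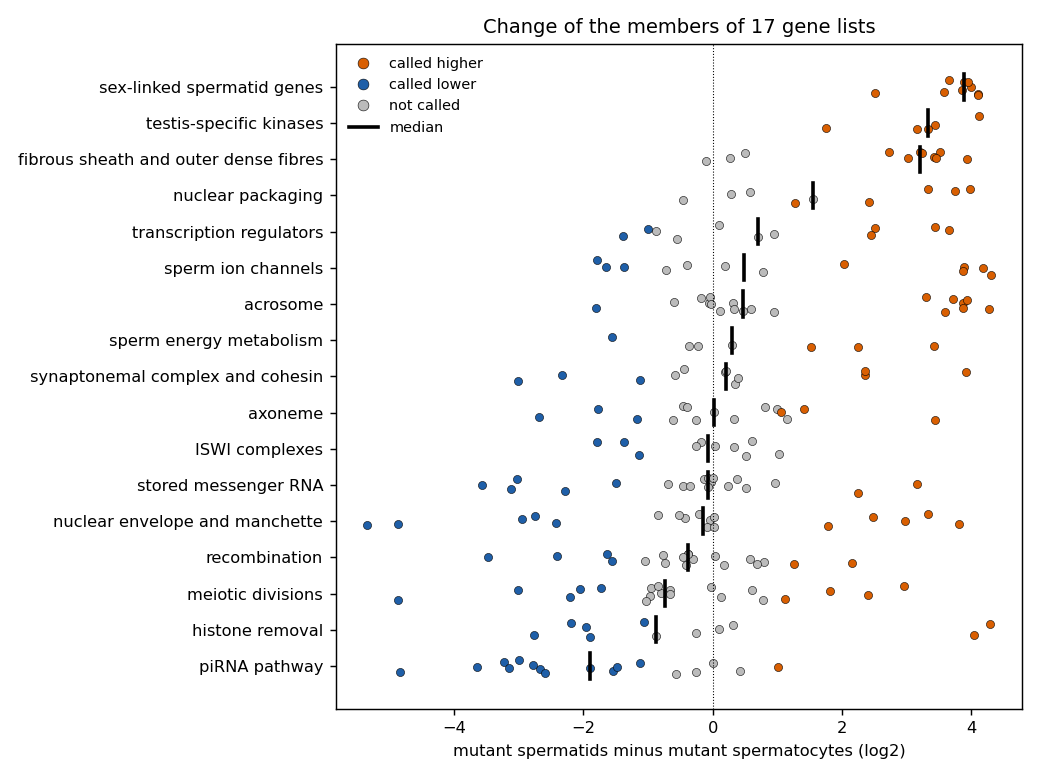
Log2 change from mutant spermatocytes to mutant spermatids of each tested member of 17 gene lists (1 point per gene, vertical bar at the median; orange called higher, blue called lower, grey not called; vertical jitter is for display). Sex-linked spermatid genes have the highest median (3.89) and piRNA pathway genes the lowest (-1.90).

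Regulators of stored messenger RNA and of transcription included rises and falls, against 17% and 18.9% of all tested probes that rose and fell. Of 19 tested genes of messenger RNA storage, 5 fell and 2 rose. Elavl1, Dazl, Dazap1 and Tsn, which encode RNA-binding proteins, fell by 3.57, 3.1, 3.02 and 2.28. Tent5c, a poly(A) polymerase, and Cpeb2, a cytoplasmic polyadenylation factor, rose by 3.16 and 2.26 (4.02 and 3.19 without spermatocyte replicate 3). A dimmer Cpeb2 probe fell by 1.06 ± 0.38 (limma adjusted p = 0.0395), and it also fell in controls (-1.52). Of 11 tested transcription regulators, 4 rose and 2 fell. Fhl5, the testis coactivator of CREM, read 7.79 and 10.02 in spermatocytes and 12.46, 12.72 and 12.51 in spermatids (3.66 ± 0.77, limma adjusted p = 0.00173; 4.78 without replicate 3). Sox5, Taf7l and Sox30 rose by 3.44, 2.51 and 2.46 (Sox5 and Taf7l by 4.88 and 3.27 without replicate 3). Tcfl5 fell by 1.0, and without spermatid replicate 2 or 3 it lost its call (-0.89 and -0.94). Crem itself read 10.75 and 11.08 against 11.75, 11.67 and 12.12 at its brightest probe, without overlap, but just under the required fold (0.96 ± 0.26, limma adjusted p = 0.00971).

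Crem was 1 of 101 genes with a probe that rose and another that fell, out of 4804 genes with at least 2 tested probes. A second Crem probe rose by 1.44 ± 0.32, and 2 fell by 1.47 ± 0.36 and 1.64 ± 0.46. The gene with the widest split was Etnk1, which encodes an ethanolamine kinase: the probe with the largest rise of any named gene read 4.56 and 7.8 in spermatocytes and 10.48, 11.19 and 10.80 in spermatids (4.67 ± 0.79), while another read 7.24 and 6.81 against 5.20, 5.29 and 4.80 (-1.96 ± 0.29). The rise of the first was 6.30 without spermatocyte replicate 3. Pcnt, which encodes the centrosomal protein pericentrin, rose by 3.37 at 1 probe and fell by 2.27 at another. Ercc2, which encodes a helicase of transcription and repair, rose by 2.43 and fell by 3.03 (limma adjusted p = 0.000418 and 3.37e-05). Sox5 rose at 4 probes (1.66 to 3.88) and fell at a weak one (-1.05). These genes were singled out after their values were seen. Of the 101 genes, 60 also had probes called in both directions in control mice, where 80 genes had such probes. The transcript that each probe reads was not analysed here, and the value of a gene in this text is that of the probe named by the rule or of the brightest probe.

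The sex chromosomes are silenced in pachytene spermatocytes. Of 481 tested X-linked probes, 203 (42.2%) rose and 3 (0.624%) fell, against 16.1% and 20.4% of the 19793 autosomal probes. The median change was 0.59 on the X and -0.11 on the autosomes. Among single autosomes the share that rose ran from 13.4% (chromosome 11) to 21.5% (chromosome 14). On the Y, 14 of 20 tested probes rose and none fell (median 2.87). The 3 X-linked probes that fell belonged to Fmr1, Lage3 and Ndufa1, which are named because they were so few. In controls 203 X-linked probes also rose, 186 of them the same probes.

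All 9 tested sex-linked spermatid genes rose, against 17% of all tested probes and 42.2% of those on the X. Their median was 3.89 (2.57 without spermatocyte replicate 2 and 4.94 without replicate 3). Ssty2, a multicopy Y-linked gene, read 6.43 and 10.52 in spermatocytes and 12.47, 12.31 and 12.87 in spermatids. The distance between its spermatocyte arrays was larger than that between spermatocyte replicate 3 and any spermatid array, and its rise of 4.11 ± 0.99 (limma adjusted p = 0.00437) was 2.06 without replicate 2 and 6.15 without replicate 3. The X-linked Cypt2, which encodes a cysteine-rich perinuclear theca protein, read 5.41 and 7.36 against 10.34, 10.84 and 10.33 (4.11 ± 0.56; limma adjusted p = 7.82e-05; 5.09 without replicate 3). Eif2s3y, a translation initiation factor gene on the Y, read 4.62 and 6.26 against 9.24, 9.23 and 9.63 (3.96 ± 0.39; 4.78 without replicate 3). The Ssty and Cypt genes have near-identical copies, and their probes may read more than 1 of them.

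The 15 largest rises, 1 probe a gene, ran from 4.38 to 4.67. Besides Etnk1 they included Eef1d, which encodes a translation elongation factor subunit. Its probe read 4.55 and 6.25 in spermatocytes and 9.73, 10.23 and 9.86 in spermatids (4.55 ± 0.45, limma adjusted p = 9.84e-06, and 5.40 without spermatocyte replicate 3). The brightest Eef1d probe rose by less, from 10.93 and 11.16 to 12.04, 12.65 and 12.28 (1.295 ± 0.245). Another rose by 2.67, and a further dim one was not called (0.19). Rbms1, which encodes an RNA-binding protein, read 4.39 and 8.33 against 10.74, 10.93 and 10.90 (4.51 ± 0.84; 2.54 without replicate 2 and 6.49 without replicate 3). The others were Acot10, Tex55, Tbc1d9, Cct8l1, Calr3, Gm5800, Erich3, Chn1, Zdhhc11, 1700020L24Rik, 1700001P01Rik and 1700092M07Rik. Calr3 encodes a testis calreticulin of the endoplasmic reticulum, and Zdhhc11 a palmitoyltransferase. In all 15, spermatocyte replicate 3 read higher than replicate 2, and without it their rises ran from 5.01 to 6.49.

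The 15 largest falls ran from -4.79 to -5.43 and had smaller errors. Mgll, which encodes monoglyceride lipase, read 11.05 and 10.49 in spermatocytes and 5.58, 5.33 and 5.20 in spermatids (-5.43 ± 0.29, limma adjusted p = 1.05e-06). Fbxo3, an F-box protein of ubiquitin ligases, read 10.79 and 10.16 against 5.72, 5.11 and 5.45 (-5.07 ± 0.33). The neighbours Lypd11 and Lypd10, members of the LY6/PLAUR family on chromosome 7, fell by 5.08 and 5.07. The list also held Mark2, Ccp110, Alyref, Skap2, Sav1 and 9430015G10Rik, besides Septin12, Abitram, Cdk2, Lbr and Tdrd5. Ccp110 encodes a centriole cap protein, Alyref an adaptor of messenger RNA export, and Sav1 a scaffold of the Hippo pathway. Without spermatocyte replicate 3, 59 of the 94 probes named as rises moved by more than 1.5-fold, against 1 of the 53 named as falls.

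Most called probes moved the same way in control cells. In controls 8149 of the same probes (32.9%) were called, 3751 higher (15.1%) and 4398 lower (17.8%). The 2 comparisons share no array. Of the probes that rose in mutants, 3296 also rose in controls (78.4% of the mutant and 87.9% of the control rises), and 3766 fell in both (80.4% and 85.6%). The changes correlated across the 24765 probes (Pearson 0.942, Spearman 0.904), which share the normalization and are not independent replicates. Of the 904 rises called only in mutants, 831 had the same sign in controls, and of the 918 such falls 910 did. Called rises of 16-fold or more numbered 176 in mutants and 443 in controls, and the mutant count was 0 without spermatocyte replicate 2 and 870 without replicate 3. Over the probes that rose in controls, the median within-mouse change was 2.68 in mutant mouse 2 and 2.12 in mutant mouse 3, against 1.91, 2.42 and 2.20 in the 3 control mice.

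**Figure D4:**
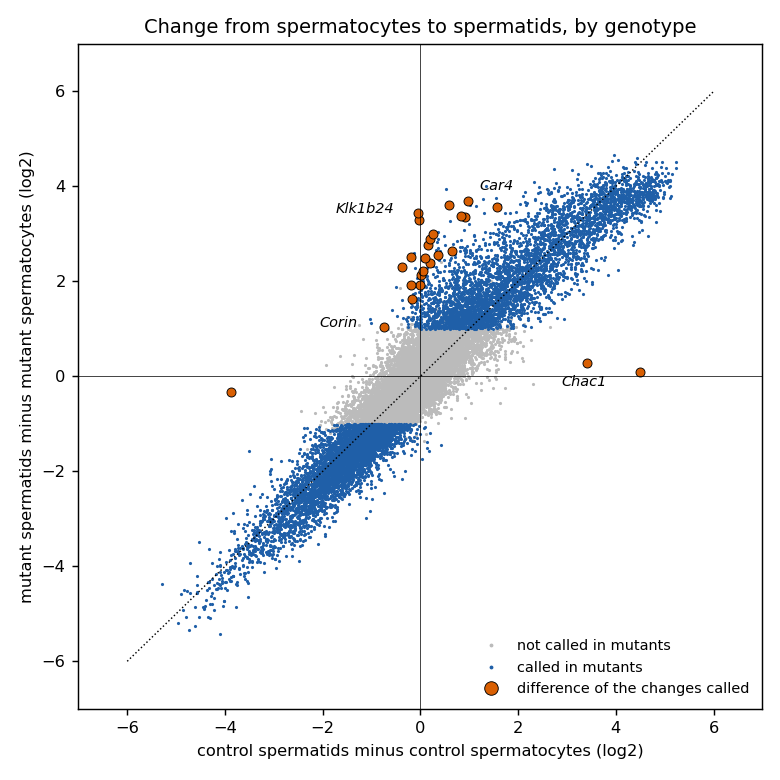
Log2 change from spermatocytes to spermatids in controls (horizontal) and in mutants (vertical) for each of the 24765 tested probes; blue probes were called in mutants, and orange circles mark the 25 probes whose change differed between the genotypes. The dotted line marks equal change; most probes lie along it (Pearson 0.942), and Chac1 lies far below.

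The test of the difference between the genotypes called 25 probes (0.101%), which cover 18 named genes: 23 (0.0929%) had a higher change in mutants and 2 (0.00808%) a lower one, and 1749 probes had an unadjusted p under 0.05. This count moved with single arrays, from 8 without mutant spermatid replicate 2 or 3 and 9 without control spermatocyte replicate 1, to 49 without mutant spermatid replicate 1 and 133 without mutant spermatocyte replicate 3. With the mouse as a random block it was 46 and with the mouse as a fixed block 4, of which Chac1 and Ldb2 carry a name. The fixed block takes up the unpaired mutant spermatid replicate 1, so its mutant change rests on replicates 2 and 3. All 17 named genes with a higher change were called higher in mutants and not called in controls. The detection filter left out 3986 probes that were detected on control arrays but on none of the 5 mutant arrays. Probes raised in control spermatids alone could thus be left out, whereas probes detected in mutant spermatids alone entered. This limits what the split into 23 higher and 2 lower can show. With no detection filter 17 probes were called, 14 higher and 3 lower.

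Klk1b24, a tissue kallikrein protease, had the largest difference of a named gene. It read 5.09 and 6.57 in mutant spermatocytes and 8.79, 9.87 and 9.06 in mutant spermatids, whereas all 6 control arrays lay between 4.42 and 4.95; the other tested Klk1b24 probe was dim and not called (0.60 ± 0.39). Its change of 3.43 ± 0.43 in mutants exceeded that in controls (-0.04 ± 0.26) by 3.47 ± 0.50 (limma adjusted p = 0.0189; 0.104 with the mouse as a fixed block). The Klk1b genes are near-identical, and the probe may read more than 1 of them. Car4, a membrane carbonic anhydrase, read 4.68 and 5.52 in mutant spermatocytes and 8.65, 8.98 and 8.75 in mutant spermatids, against 5.26 to 5.47 in control spermatids. The difference was 2.72 ± 0.31 (limma adjusted p = 0.00784; 0.0916 with the fixed block).

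Sp5, a transcription factor induced by Wnt signaling, was already higher in mutant than in control spermatocytes, at 6.17 and 7.43 against 4.29 to 4.54, and rose to 10.15, 9.44 and 9.64 in mutant spermatids (difference 2.71 ± 0.41, limma adjusted p = 0.0255). Epha6, an Eph receptor, showed the same order, with 6.51 and 7.02 in mutant spermatocytes, 8.90, 8.62 and 9.54 in mutant spermatids and 4.42 to 5.33 on the control arrays (2.70 ± 0.40, limma adjusted p = 0.023). Ldb2, a LIM-domain cofactor, was detected on neither mutant spermatocyte array and was at least 6.36-fold higher in mutant spermatids, which read 7.18, 7.41 and 7.93. Mx2, an interferon-induced GTPase, and Myo1f, an unconventional myosin of leukocytes, differed by 2.70 ± 0.35 and 2.59 ± 0.39. The remaining named genes were Lum, Igfbp7, Calb2, Gm11346, Slc9a9, Tcf7l1, Pou5f1, Map2k6, Pcdh10 and Corin, with differences of 1.77 to 2.45. Pou5f1 encodes the pluripotency factor OCT4, and Tcf7l1 a transcription factor of the TCF/LEF family. With the mouse as a fixed block, all 18 named genes but Ldb2 and Chac1 lost the call (limma adjusted p of 0.0748 for Mx2, Epha6 and Myo1f to 0.13 for Corin) and kept their direction. Without spermatocyte replicate 3 the mutant changes of Klk1b24 and Sp5 were 4.17 and 3.53.

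Chac1, a glutathione-degrading enzyme of the integrated stress response, was the named gene with a lower change. It read 4.35 and 4.41 in mutant spermatocytes and 4.40, 5.0 and 4.55 in mutant spermatids, where 1 of the 5 arrays detected it. In controls it read 4.18, 4.52 and 4.41 in spermatocytes and 7.50, 7.90 and 7.70 in spermatids. The control spermatids thus stood apart from the other 3 groups, and the difference of the changes was -3.12 ± 0.32 (limma adjusted p = 0.00365).

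**Figure D5:**
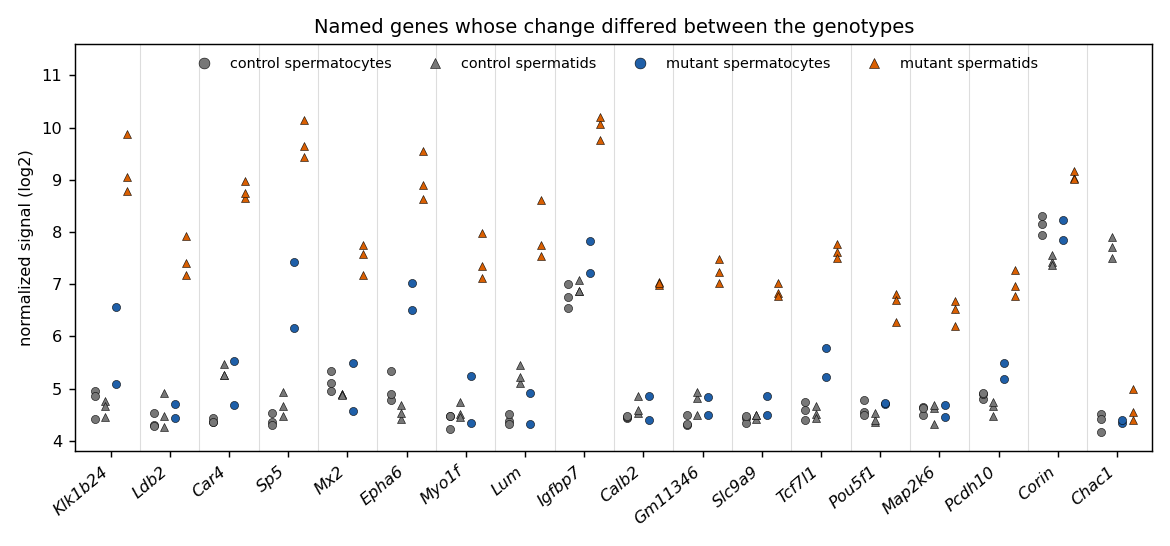
Normalized log2 signal on each array of the 18 named genes whose change differed between the genotypes (grey, control; blue, mutant spermatocytes; orange, mutant spermatids; circles, spermatocytes; triangles, spermatids). In Klk1b24 the mutant spermatids read 8.79 to 9.87 and all controls 4.42 to 4.95, and in Chac1 only the control spermatids are raised (7.50 to 7.90).

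Of 13 genes that the study had named from these samples as higher in mutant spermatids, 11 rose from mutant spermatocytes to mutant spermatids and none fell (median 2.90, or 3.53 without spermatocyte replicate 3; 0.21 in controls, where 2 rose), and 4 were called for the difference (2 without spermatocyte replicate 2 and 9 without replicate 3). Over all tested probes 17% rose and 18.9% fell, and 0.101% were called for the difference. The list of 13 genes was chosen on these samples and is not independent evidence of its direction. Klk1b27 read 5.08 and 7.14 in spermatocytes and 9.71, 10.67 and 9.78 in spermatids (3.95 ± 0.51; 4.98 without replicate 3). Spdef, an ETS transcription factor, read 4.83 and 6.28 against 8.83, 9.51 and 9.46 (3.76 ± 0.36; 4.49 without replicate 3). Their differences from the control change just missed the threshold (limma adjusted p = 0.0504 and 0.0845).

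Markers of other testis cells were measured beside these results. Over all tested probes 17% rose and 18.9% fell, for comparison with the counts in this and the next paragraph. Markers of myoid cells and fibroblasts summed to a linear signal of 420.2 and 482.2 on the mutant spermatocyte arrays and 1791 to 1921 on the mutant spermatids, against 331.2 to 452.6 in control spermatids. Of the 12 listed, 6 were tested and 2 rose, Lum and Igfbp7, while Myh11, Tagln, Cnn1, Des, Col1a1 and Pdgfra were detected on none of the 5 arrays. Igfbp7 and Lum made the larger part of the sum on the mutant spermatids, and both are among the genes called for the difference. This sum therefore does not speak for the list as a whole. Lum, a fibroblast proteoglycan, rose by 3.60 at a second probe, whose difference from controls was not called (limma adjusted p = 0.108). Endothelial markers summed to 861.4 and 1109 in mutant spermatocytes and 1504 to 1801 in mutant spermatids, against 348.8 to 430.4 in control spermatids. Of the 11 listed, 9 were tested (median change 0.13), and Kdr and Esam were not detected. Egfl7 rose from 4.74 and 4.70 to 7.01, 8.17 and 6.47, and Vwf from 4.41 and 4.77 to 6.74, 7.29 and 6.42. These genes made only the smaller part of the sums. Other Egfl7 probes were dim and not called (0.33 and -0.275). The list also holds Cldn5, which the study names among genes raised in mutant spermatids, and its part in the sums was not tested. Of 9 tested macrophage markers 5 rose, and the sum went from 362.3 and 918.8 to between 4394 and 5659, of which Aif1 alone (11.74, 12.30 and 11.85; a rise of 3.79, or 4.80 without spermatocyte replicate 3) made the larger part; control spermatids summed to 3182 to 3424. Cd163 was not detected.

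Leydig cell markers varied from array to array, with sums of 177.8 and 1016 in spermatocytes and 2042, 419 and 1614 in spermatids, and Cyp11a1 and Cyp17a1 rose, whereas Star, Hsd3b1 and Hsd3b6 were not detected. Cyp17a1 (2.30) lost its call without spermatid replicate 1 or 3 (2.12 and 2.15) or spermatocyte replicate 2 (1.24), and rose by 3.36 without spermatocyte replicate 3. Of 6 tested Sertoli cell markers Sox9 rose, at least 2.09-fold, and Amh, Fshr and Ctsl were not detected. The single tested red blood cell marker and both tested epididymal markers were not called. Of 9 tested spermatogonial markers 1 rose and 1 fell, and Stra8, Dmrt1 and Nanos3 were not detected. Of 9 tested early response genes, which cell dissociation can induce, 1 rose, Dusp1 (2.38 ± 0.48), by about as much as in controls (2.58 ± 0.29). The part of these cell types in the difference between the genotypes was not tested.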

How the data were processed

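RNA from sorted cells was hybridized to Illumina MouseWG-6 v2.0 arrays, with 1 array for each sorted sample. The authors deposited the mean bead intensity of each probe without background subtraction or normalization, with its detection p-value, from GenomeStudio 2011.1 per the submitters' processing notes. They also deposited log2 values made with limma 3.12.1 by normexp background correction and quantile normalization. Here the intensities of all 12 arrays were corrected and normalized again with limma 3.58.1 (R 4.3.3; nec with an offset of 16, negative controls inferred from the detection p-values, then quantile normalization), and the result differed from the deposited log2 values by at most 0.0458. One linear model of 4 groups with array weights, fitted to the 11 uncensored arrays, gave the mutant change, the control change and their difference (lmFit, eBayes, two-sided, Benjamini-Hochberg over 24765 probes). The code of the fit was also run on simulated data with independent noise and shifts added to mutant spermatids only. Those data held no pairing by mouse and no unequal spermatocyte arrays, so that run cannot speak to either.

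Gene names came from the platform annotation, updated through Entrez IDs to RefSeq (GRCm38.p6), which left 4403 tested probes unnamed; removal of probes by annotation quality was not repeated here. Each listed gene entered by its probe with the highest mean over the 5 arrays. The named genes were the 15 largest rises and 15 largest falls without overlap, the 8 largest differences in each direction, the called list members with the largest change (up to 4 each way, or else the brightest member), and a fixed set of spermatogenesis genes, of which Prm2, Sycp3 and Mybl1 gave no tested probe. The differences were taken from called probes whose mutant groups did not overlap or that were called in controls. The genes, lists and tests were chosen with earlier results of these data known. A probe detected on no array of a group gives a bound, the other group's mean over the mean of, per array, the higher of the lowest detected signal and the probe's own.

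Spermatocytes and spermatids of a number come from 1 mouse by the labels. Their deviations from the group means correlated at -0.04 and 0.15 in mutants and -0.00468 to 0.234 in controls, and at -0.236 to 0.172 between mice; with 2 spermatocyte arrays the mutant deviations mirror each other. The block by mouse was an alternative, as in the closing section, and the consensus correlation was 0.0949. Alternatives covered background correction, offset, scaling, detection filter, weights, fold rule, the censored array and each array left out.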

Additional observations from a re-analysis of the deposited data

Results flagged for a closer look

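The change from spermatocytes to spermatids differed between the genotypes at 25 probes by the test of the difference itself. The difference of the log2 changes, mutant minus control, was 3.47 for Klk1b24, 2.73 for Ldb2, 2.72 for Car4, 2.71 for Sp5, 2.70 for Mx2, 2.70 for Epha6, 2.59 for Myo1f and 2.45 for Lum. It was -3.12 for Chac1. In the 8 genes with a positive difference, all 3 mutant spermatid arrays lay above all 6 control arrays. They also lay above both mutant spermatocyte arrays, which the rule that picked these genes required.

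The censored array of mutant spermatocyte replicate 1, which enters no test, carried a spermatid signal above that of the control spermatocytes. It stood at 34.5% of the way from control spermatocytes to control spermatids on rising probes, where the control spermatocytes stood at -11.0% to 6.22%, and at 20% on falling probes, where they stood at -4.48% to 3.24%.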

How the results depend on the processing

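Under the alternatives no named probe that was called changed direction. The number of calls stayed within 1.5 times except without background correction (4996 mutant calls, 4409 control calls, 41 differences, and 123 X-linked rises over the chromosomes) and with the fold of 2 itself tested (4302, 5018 and 1). Without 1 array the mutant calls numbered 8177 to 10018 and the control calls 7803 to 8431. The difference calls moved most: 46 with an offset of 50, 121 with the censored array counted (66.9% of them higher in mutants, against 92% otherwise), and 8 to 133 without 1 array. Pairing by mouse gave 46 difference calls with a random replicate block and 4 with a fixed replicate block, while the mutant calls were 9012 and 9238 and the control calls 8147 and 7954. Apart from the calls given with a block in the report (the differences of 16 named genes, Tnp1, Sycp1 and Ccna1), neither block changed the call of a named gene. Among the counts of list members, 69 moved by over 1.5 times and 975 did not. Median scaling took the median difference of all probes from -0.02 to 0.22. The alternatives for array position, chromosomes and gene lists were added after seeing the data. The cause of these moves was not tested. Signals near background give only bounds for dim probes.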
